A study of Homo sapiens with 15 samples.

Results

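The regions described here are the open chromatin sites that flank the beta-globin gene cluster on human chromosome 11p15, without the cluster itself. Peaks of the 15 deposited lists were merged where they shared 1 bp or more, and the merged regions between positions 300000 and 10300000 of chromosome 11 (hg19) were taken, leaving out those that overlapped 5220000 to 5320000, which holds the globin genes and their locus control region. This gave 744 flanking regions of 120992 regions in all. Their distance was measured from HS2, at position 5302000, the enhancer to which the guide RNAs (gRNAs) were directed. The stretch from 4300000 to 6300000, which holds the olfactory receptor genes on both sides of the globin genes, formed a class of its own with 83 regions. The telomeric side, from 300000 to 4300000, held 441 regions and the centromeric side, from 6300000 to 10300000, held 220.

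The cells were K562, a human erythroleukemia line, transduced with a lentivirus that encodes dCas9, a Cas9 that binds DNA without cutting it, or dCas9 fused to the KRAB repressor domain. The 5 groups of 3 libraries were dCas9-KRAB with gRNA Cr4, dCas9-KRAB with gRNA Cr10, dCas9 with Cr4, dCas9 with Cr10, and dCas9-KRAB without a gRNA. The 6 libraries of dCas9-KRAB with Cr4 or Cr10 are together called guided dCas9-KRAB, and those of dCas9 and of dCas9-KRAB without a gRNA the other 9 libraries. All groups were selected with puromycin and stably carried dCas9 or dCas9-KRAB, and neither untransduced cells nor dCas9 without a gRNA were among them. One annotation field names HS2 as the gRNA target in every group, so the groups follow the titles and the design text. Transduction in triplicate is stated, but not which numbered libraries came from separate cultures, so a p-value here weighs a difference against the spread among these libraries, part of which may be technical.

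KRAB recruits the co-repressor KAP1 (TRIM28) and, through it, histone deacetylases and a methyltransferase for lysine 9 of histone H3, and this repressive chromatin can extend along the chromosome from the site of recruitment. DNase I cuts chromatin most readily where regulatory proteins displace nucleosomes, so an active promoter or enhancer appears as a peak of cut fragments. Olfactory receptor genes are transcribed in sensory neurons of the nose and lie in closed chromatin in most other cells, whereas the TRIM genes among them encode ubiquitin ligases that are widely expressed. The question was whether chromatin at a distance from HS2 became less open where dCas9-KRAB was directed to it.

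Of the sites used to check the cell line, HS2 and HS3 of the locus control region and the promoters of HBG1 and HBG2, the fetal globin genes, each held a peak in all 15 lists, and the promoter of HBB, the adult gene, held none in any list. The windows for these sites are recalled hg19 positions that were not checked against an hg19 annotation. The lists held between 53147 and 94777 peaks, both extremes being libraries of dCas9 with Cr10. The level of a region was the height of its peak at the summit, in fragments, which was recovered from the deposited fold and p-value columns. The total number of sequenced fragments is not given in the sources used here. The median summit pileup of a library, taken over the 38888 regions found in all 15 lists, ran from 44 to 115 fragments, and pileups were therefore compared relative to that median.

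The promoters below are shown because 3 of them lay under peaks found in all 15 lists inside the olfactory receptor stretch, whereas no peak lay within 1 kb of the HPX start on the centromeric side. TRIM21 encodes a cytosolic antibody receptor, TRIM6 a ubiquitin ligase, TRIM5 a factor that restricts retroviruses, and HPX the plasma protein hemopexin, which is made mainly in liver. Each sequence covers 250 bases before to 50 bases after the start, 5′ to 3′ on the gene's strand, from RefSeq on GRCh38.p14, with every CG dinucleotide in capitals. The peaks are on hg19, and the gene starts used to match them were recalled hg19 positions, whose spacing fell within 500 bp of the spacing in the GRCh38.p14 gene table for 38 of 42 genes. The exceptions were H19, CD81, STIM1 and SBF2.
TRIM21: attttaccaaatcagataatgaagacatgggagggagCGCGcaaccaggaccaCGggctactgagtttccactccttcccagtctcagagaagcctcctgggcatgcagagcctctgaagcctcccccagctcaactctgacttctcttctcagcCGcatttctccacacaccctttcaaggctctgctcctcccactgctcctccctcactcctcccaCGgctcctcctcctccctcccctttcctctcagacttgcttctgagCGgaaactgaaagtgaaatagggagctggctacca
TRIM6: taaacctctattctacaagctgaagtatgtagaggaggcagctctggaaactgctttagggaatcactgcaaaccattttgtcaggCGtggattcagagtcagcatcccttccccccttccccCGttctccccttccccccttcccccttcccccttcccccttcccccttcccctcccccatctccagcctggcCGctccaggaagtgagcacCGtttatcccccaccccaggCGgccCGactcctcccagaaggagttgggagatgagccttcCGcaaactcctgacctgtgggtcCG
TRIM5: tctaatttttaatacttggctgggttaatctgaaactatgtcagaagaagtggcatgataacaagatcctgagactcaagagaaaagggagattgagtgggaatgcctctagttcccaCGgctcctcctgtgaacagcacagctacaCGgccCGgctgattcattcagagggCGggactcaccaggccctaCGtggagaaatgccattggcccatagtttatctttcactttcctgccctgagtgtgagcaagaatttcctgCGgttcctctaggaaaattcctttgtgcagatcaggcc
HPX: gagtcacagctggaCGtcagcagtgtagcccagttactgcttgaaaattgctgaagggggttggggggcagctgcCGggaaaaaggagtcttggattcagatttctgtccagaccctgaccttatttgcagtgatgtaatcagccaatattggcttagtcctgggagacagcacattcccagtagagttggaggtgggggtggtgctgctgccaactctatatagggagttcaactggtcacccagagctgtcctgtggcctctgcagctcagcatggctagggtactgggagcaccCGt

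These 3 TRIM promoters held 6 (TRIM21), 8 (TRIM6) and 6 (TRIM5) CG dinucleotides, and HPX held 3. Over the 24 listed gene starts with a peak in all 15 lists and a promoter in the table that begins within 1 kb of the gene's annotated start, the median was 25.5 CG, with a range of 6 to 44, so TRIM21 and TRIM5 were at its lower end. Over the 3 listed gene starts without a region, by the same rule, the median was 8 CG, with a range of 3 to 15. HPX was the lowest of them, and the 3 TRIM promoters lay within their range. Over 39 olfactory receptor promoters between RRM1 and SMPD1 on GRCh38.p14 the median was 1 CG, with a range of 0 to 14. For all 27305 promoters the median was 14. The median GC content was 63.7% for the 24 gene starts with peaks, 40% for the olfactory receptor promoters and 58.3% for all promoters. The motif AGATAA, searched on both strands and of the kind that erythroid GATA factors bind, was in 13 of 39 olfactory receptor promoters (33.3%), in 2 of 24 promoters with peaks (8.33%, TRIM21 and TRIM5), and in 10.5% of all promoters. A match only describes the letters in the window. On GRCh38.p14, 152 annotated genes lie between RRM1 and SMPD1, of which 80 are protein-coding and 55 of those are olfactory receptors.

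The flanks were unevenly populated with open sites. The olfactory receptor stretch held 43.7 regions per Mb, against 110.25 per Mb on the telomeric side, 55 per Mb on the centromeric side and 42.3 per Mb on the rest of chromosome 11. In the olfactory receptor stretch 18 of 83 regions (21.7%) had a peak in all 15 lists, against 173 of 441 (39.2%) on the telomeric side, 79 of 220 (35.9%) on the centromeric side and 32.1% of all regions. The longest runs of the stretch without any region were 162 kb (6084173 to 6246326) and 159 kb (4744367 to 4903149).

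**Figure D1:**
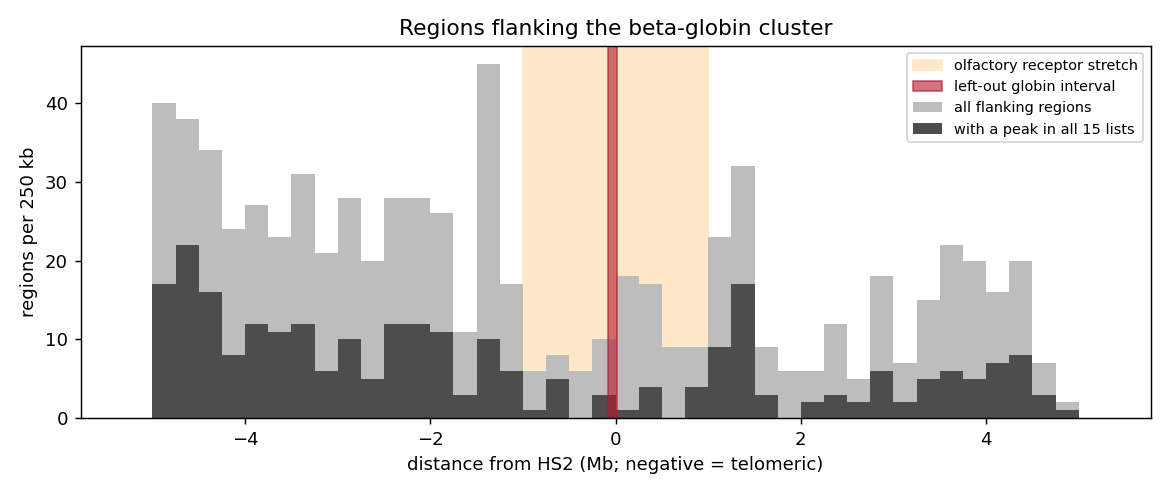
Flanking regions per 250 kb by distance from HS2 in Mb (negative is telomeric), all 744 in light grey and the 270 with a peak in all 15 lists in dark grey. The olfactory receptor stretch (shaded) holds 83 regions, and the telomeric side holds 441.

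Of the 744 regions, 270 had a peak in all 15 lists, and 121 had a peak in 1 list. How many were found in a library followed the length of its list. Between 386 and 563 regions, with a mean of 443 ± 63.3 (SD, n = 6), were found under guided dCas9-KRAB, against 340 to 586 with a mean of 459 ± 82.7 (SD, n = 9) in the other libraries. The groups overlapped. Across the 15 libraries the count and the list length had a Pearson r of 0.988, given as a description. When all lists were shortened to the 53098 strongest peaks, the counts were 345 ± 5.24 (SD, n = 6) under guided dCas9-KRAB and 342 ± 7.66 (SD, n = 9) in the others.

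**Figure D2:**
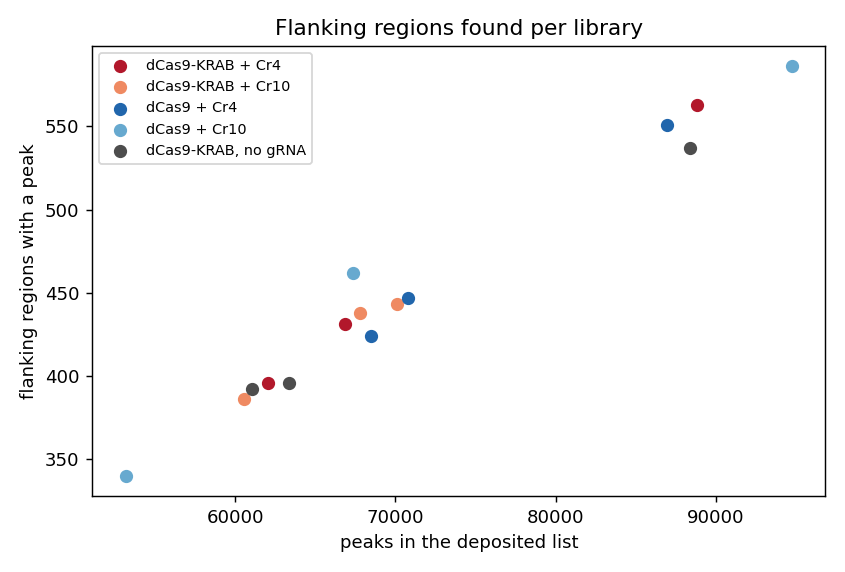
Flanking regions with a peak against the number of peaks in the deposited list, one point per library, coloured by group. The counts climb with list length, and dCas9-KRAB with a gRNA (386 to 563 regions) lies within the range of the other libraries (340 to 586).

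No flanking region passed the test for a change in openness. The 6 libraries of guided dCas9-KRAB were compared with the other 9 (the pooled comparison), by limma over the 38888 regions found in every list. At an adjusted p of 0.05, 0 of 270 flanking regions were called, beside 0% of all regions tested, and 2 flanking regions were under an unadjusted p of 0.05. One of these was lower, 0.370% of the 270 beside 0.399% of all regions, and one was higher, 0.370% beside 0.37% of all regions. This count depended on single libraries. Without replicate 3 of dCas9-KRAB with Cr4 it was 9 of 270 (2 lower and 7 higher, 3.33% beside 2.60% of all regions), and without replicate 1 of the libraries without a gRNA it was also 9 (2 lower and 7 higher, 3.33% beside 2.20%). Leaving out each of the others gave 0 to 4, and the replicate number as a block gave 5 (1.85% beside 1.59%). The median difference over the flanking regions was 0.02 on the log2 scale, against 0.00 over all regions, and 37.4% of the flanking regions lay below 0, against 48.2% of all regions. No flanking region had its 6 and 9 libraries wholly apart in either direction, beside 0% of all regions.

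HS2 itself, which is not a flanking region, sets the scale. Its pileup relative to the library median was 0.643 to 1.36 times, with a median of 1.02, under guided dCas9-KRAB, against 1.28 to 2.09 times, with a median of 1.39, in the other libraries. The fitted log2 difference was −0.71, with a 95% interval from −0.96 to −0.46, and its adjusted p in limma was 0.187. With the replicate number as a block the same difference had an adjusted p of 8.80e-05 (limma), which passed the threshold. Over all groups, however, correlations between same-numbered libraries were −0.283, 0.135 and 0.653, so the numbers did not pair them throughout. The difference also passed in limma when replicate 2 without a gRNA (adjusted p = 0.0436) or replicate 1 of dCas9-KRAB with Cr10 (adjusted p = 0.0109) was left out. Differences at the flanking regions ran from −0.26 to 0.28, so 0 of 270 fell as far as HS2. Only regions with a peak in every list were compared. A region whose peak was lost under guided dCas9-KRAB could not be among the 270. The comparison with HS2 therefore covers regions that kept their peak and cannot show whether weaker ones fell as far. The 95% intervals of all 270 excluded the HS2 difference of −0.71, and those of 264 lay wholly above the HS2 interval. The lowest bound of any flanking region was −0.55, a level of 0.683 times.

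**Figure D3:**
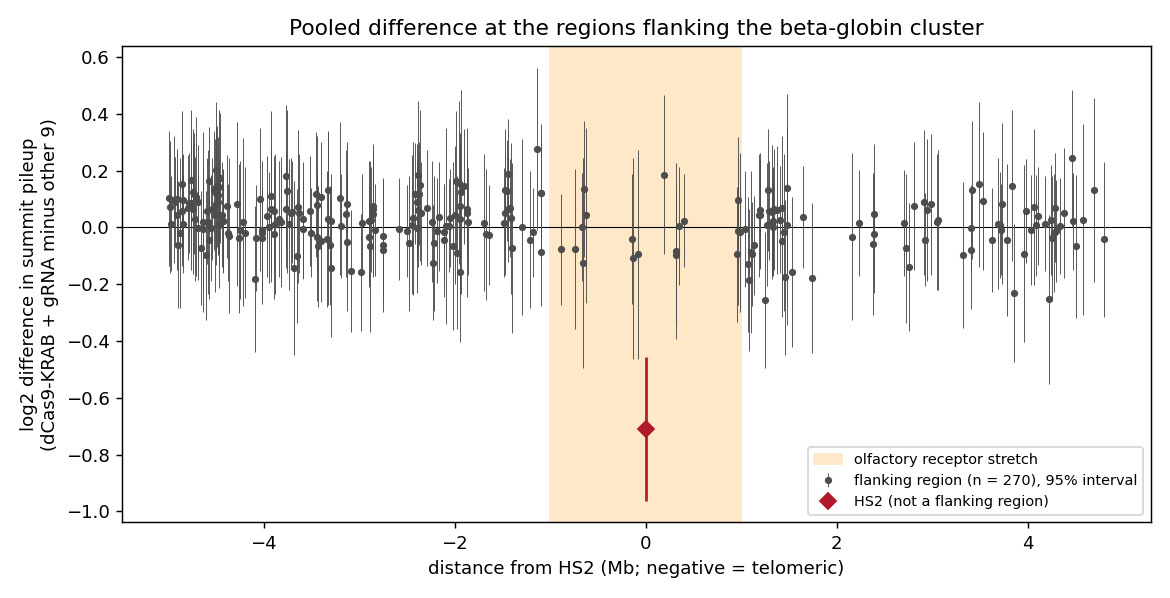
Log2 difference in summit pileup, dCas9-KRAB with a gRNA minus the other 9 libraries, for the 270 flanking regions with a peak in all 15 lists, by distance from HS2 in Mb. Bars are 95% intervals from limma. The flanking regions lie between −0.26 and 0.28, and HS2 (diamond) lies at −0.71.

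By distance, the class medians stayed near 0. Inside the olfactory receptor stretch the median log2 difference was −0.09 up to 100 kb from HS2 (1 region), −0.04 from 100 to 250 kb (3 regions), −0.04 from 250 to 500 kb (4 regions) and −0.01 beyond (10 regions). The value up to 100 kb rests on a single region and lay between −0.21 (without replicate 2 of dCas9 with Cr10) and 0.01 (without replicate 1 of dCas9-KRAB with Cr10) when libraries were left out in turn. The SD between replicate libraries of each class's level was 0.44, 0.21, 0.14 and 0.16 in the same order, larger than the size of each median. This SD describes single libraries and is not the error of a difference between groups, so it does not bound these medians. On the telomeric side the medians of the 4 successive classes were 0.05, 0.01, 0.03 and 0.06, and on the centromeric side 0.01, 0.02, 0.01 and 0.01. Over the 270 regions the difference had a Pearson r of 0.186 and a Spearman rho of 0.210 with distance from HS2, and an r of 0.177 with the level. These are descriptions across regions that share the same 15 libraries.

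Within the olfactory receptor stretch, 18 regions had a peak in every list, and a region that lost its peak was again left out. The pooled difference of the 18 regions ran from −0.13 to 0.19 with a median of −0.03, and 11 of 18 lay below 0. None of the 18 was under an unadjusted p of 0.05. Only 0.769% of all regions were under it in this fit, so a count of 0 among 18 says little. The lowest bound of the 95% intervals of the 18 was −0.50, a level of 0.709 times, so the fitted HS2 difference of −0.71 lay outside all 18. The intervals of 15 of the 18 lay wholly above the HS2 interval, which ran from −0.96 to −0.46.

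The nearest region with a peak in all 15 lists was chr11:5217319-5217639 (hg19), 84.5 kb from HS2 on the telomeric side. Its pileup was 0.403 to 0.719 times the library median, with a median of 0.579, under guided dCas9-KRAB, against 0.385 to 0.933 times, with a median of 0.616, in the other 9 libraries. The ranges overlapped through most of their length. The log2 difference was −0.09 with a 95% interval from −0.46 to 0.27 (limma, adjusted p = 1.00). With dCas9-KRAB the 3 libraries stood at 0.444, 0.719 and 0.536 times for Cr4 and 0.403, 0.629 and 0.623 times for Cr10. With dCas9 they stood at 0.417, 0.616 and 0.723 times for Cr4 and 0.933, 0.385 and 0.664 times for Cr10, and without a gRNA at 0.492, 0.736 and 0.5 times. The highest and the lowest of all 15 were thus 2 replicates of dCas9 with Cr10.

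The next 2 on the telomeric side with peaks in every list also had intervals that included 0. At 129 kb, chr11:5172807-5173364 had a log2 difference of −0.11, with an interval from −0.46 to 0.24. At 149 kb, chr11:5153013-5153624 had a log2 difference of −0.04, with an interval from −0.27 to 0.19. On the centromeric side the nearest such region, chr11:5497464-5497990 at 196 kb, was 0.486 to 0.754 times the median, with a median of 0.636, under guided dCas9-KRAB, against 0.411 to 0.762 times, with a median of 0.556, in the others. Its log2 difference of 0.19 was the highest of the stretch, with an interval from −0.10 to 0.47, and the groups overlapped.

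Closer to HS2 the flanks held mainly weak peaks that were listed in some libraries and not in others. The 5 nearest regions on the centromeric side, at 23.03 to 100 kb, had a peak in 3, 7, 2, 7 and 12 lists, with summit pileups of 15 to 56 fragments. At 23.03 kb (chr11:5324829-5325236) the peak was listed in 0 of 6 guided dCas9-KRAB libraries and in 3 of 9 others, 1 with dCas9 and Cr10 and 2 without a gRNA (two-sided p of 0.229 by Fisher's exact test). At 54.6 kb it was listed in 3 of 6 guided dCas9-KRAB libraries against 4 of 9 others, and at 83.2 kb in 0 of 6 guided dCas9-KRAB libraries against 2 of 9 others. At 89.3 kb it was in 2 of 6 guided dCas9-KRAB libraries against 5 of 9 others, and at 100 kb in 4 of 6 guided dCas9-KRAB libraries against 8 of 9 others. Of the 5 nearest on the telomeric side, 3 were of the same kind. Their peaks were listed in 0 of 6 guided dCas9-KRAB libraries against 1 of 9 others at 102 kb, in 4 of 6 guided dCas9-KRAB libraries against 7 of 9 others at 109 kb, and in 3 of 6 guided dCas9-KRAB libraries against 5 of 9 others at 120 kb.

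The peak was thus listed less often under guided dCas9-KRAB at 7 of these 8 weak sites, in 16 of 48 places (33.3%) against 35 of 72 (48.6%) in the other libraries. With lists of equal length the share was lower at 6 of the 8 and the same at 2, in 14 of 48 places (29.2%) under guided dCas9-KRAB against 30 of 72 (41.7%) in the others. The sites share their 15 libraries, so these counts are descriptions. At 23.03 and 83.2 kb on the centromeric side and 102 kb on the telomeric side, only the other libraries held a peak. Such sites entered as regions through those libraries, so their direction was fixed by how regions were formed. The same share over all regions listed in only some libraries was not computed. No site was set apart by its own test, with unadjusted Fisher's exact p-values of 0.229 to 1 for the 6 that were tested. At 23.03 kb the peak was absent from all 6 guided dCas9-KRAB libraries already. With a peak in 3 lists no loss could give a Fisher's exact p under 0.229, so that test could not show one. Over the whole genome the guided dCas9-KRAB libraries held a peak in 66208 ± 10413 regions (SD, n = 6). The others held one in 69748 ± 14251 (SD, n = 9). These totals include the 38888 regions found in every list, so they are no like baseline for weak sites. At 23.03 kb the second longest list, replicate 3 of dCas9-KRAB with Cr4, had no peak. The third longest, a library without a gRNA, had one. A single pair of lists at a site of 17 to 26 fragments cannot show what list length contributed. The part of list length in these counts was not tested. A pileup could not be compared at sites without a peak, and the percentile difference at 100 kb, −9.89 points, had a 95% interval from −37.1 to 17.3.

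All 5 listed gene starts of the stretch that held a peak in every library had strong ones. The peak over the TRIM68 start (chr11:4628967-4629765), a ubiquitin ligase gene, averaged 164.5 fragments over the 15 libraries, that over FAM160A2 (chr11:6255731-6256751), a gene for a vesicle transport protein, 150.6, and that over TRIM5 (chr11:5705843-5706599) 122.7. The TRIM5 peak was 1.5 to 1.84 times the library median, with a median of 1.60, under guided dCas9-KRAB, against 1.44 to 1.78 times, with a median of 1.62, in the others. Its log2 difference was 0.02, with a 95% interval from −0.14 to 0.19, and the groups overlapped. The TRIM6 peak (chr11:5617718-5618437) was 0.889 to 1.67 times, with a median of 1.22, under guided dCas9-KRAB, against 0.958 to 1.54 times, with a median of 1.27, in the others. Its log2 difference was −0.10, with an interval from −0.34 to 0.14. The TRIM21 peak (chr11:4414388-4415345) had a log2 difference of −0.08, with an interval from −0.27 to 0.12. The 5 gene starts of the stretch thus had log2 differences from −0.10 to 0.02, none past an unadjusted p of 0.05, beside 0.769% of all regions. The other regions of the stretch in all lists had mean summit pileups of 33.7 to 77.2 fragments and log2 differences of −0.13 to 0.19.

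**Figure D4:**
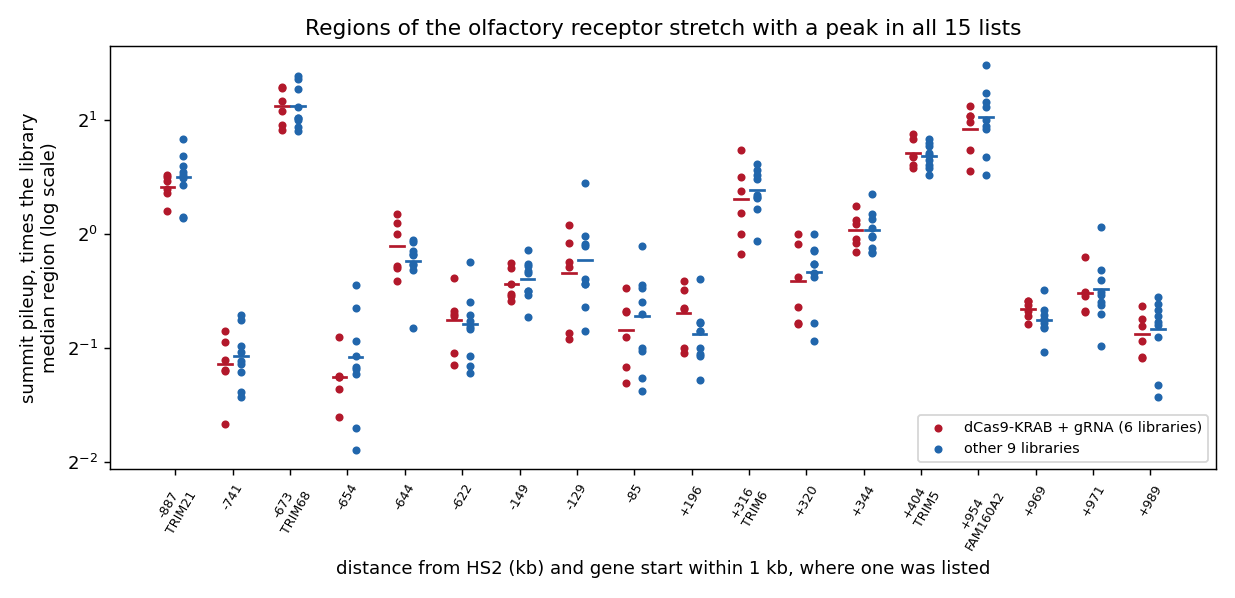
Summit pileup relative to the library median (log scale) of the 18 regions of the olfactory receptor stretch with a peak in all 15 lists, ordered by distance from HS2. Red points are the 6 libraries under guided dCas9-KRAB and blue points the other 9, with their means as bars. The groups overlap at each region, and the largest log2 difference is 0.19.

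Of 41 listed gene starts in the interval, 31 had a peak in all 15 lists within 1 kb, and none was called in any comparison or was under an unadjusted p of 0.05. Their pooled log2 differences ran from −0.12 to 0.09 with a median of 0.01, 12 of 31 below 0, and their lowest interval bound was −0.34. On the telomeric side, 12 starts had a median of 0.04. The highest pileup was at HRAS, the GTPase gene, with a mean of 235.3 fragments and a log2 difference of 0.08 (interval −0.15 to 0.32). CARS, the cysteinyl tRNA synthetase gene, had the lowest difference of the 31, at −0.12 (interval −0.33 to 0.08). RRM1, the large subunit of ribonucleotide reductase and the telomeric neighbour of the stretch, had −0.02 (interval −0.17 to 0.14). On the centromeric side, 14 starts had a median of 0.01, with SMPD1, the acid sphingomyelinase gene, at −0.09 (interval −0.28 to 0.09) and WEE1, a mitotic kinase gene, at −0.01 (interval −0.19 to 0.17).

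A pair of listed starts had a peak in only part of the lists: H19, the imprinted non-coding RNA, in 13 and CCKBR, the gastrin receptor gene, in 1, replicate 3 of dCas9-KRAB with Cr4. For H19 the recalled start and the GRCh38.p14 table differ in spacing by more than 500 bp. No region lay within 1 kb of the recalled start of IFITM2, IFITM3, IGF2, TRIM34, TRIM22, HPX or LMO1.

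The separate comparisons of the groups gave no call either. With dCas9-KRAB and Cr4 against no gRNA, 0 of 270 regions were called (0% of all regions), 3 were higher at an unadjusted p of 0.05 (0.419% of all regions) and 0 lower (0.303%). The median difference was 0.03 on the log2 scale and the range −0.35 to 0.47, beside −0.69 at HS2. With dCas9-KRAB and Cr10 against no gRNA, 0 were called (0%), 1 was lower (0.465% of all regions) and 0 higher (0.375%), with a range of −0.39 to 0.43, beside −1.15 at HS2. With the replicate block, which pairs libraries in this comparison, HS2 was called (limma, adjusted p = 3.74e-05). In the same fit 5 flanking regions were under an unadjusted p of 0.05 (1.85%, beside 1.545% of all regions). With dCas9-KRAB against dCas9, 0 regions were called for Cr4 (0%) and for Cr10 (0%). At an unadjusted p of 0.05 Cr4 gave 0 lower (0.111%) and 0 higher (0.1%), and Cr10 gave 0 lower (0.689%) and 4 higher (0.607%). Single libraries moved these counts too. Leaving out replicate 1 without a gRNA gave 11 for Cr4 against no gRNA (1 lower and 10 higher, 4.07% beside 1.815% of all regions). For Cr10 against no gRNA it gave 9 (1 lower and 8 higher, 3.33% beside 2.08%). Against dCas9, the count for Cr4 was 3 without replicate 1 of dCas9 with Cr4 (1.11%, beside 0.445% of all regions). For Cr10 it was 9 without replicate 3 of dCas9 with Cr10 (3.33%, beside 3.40%). The difference at HS2 lay outside the intervals of all 270 regions in both Cr10 comparisons, of 266 for Cr4 against no gRNA and of 177 for dCas9-KRAB against dCas9 with Cr4. In this last comparison the flanking regions ran from −0.38 to 0.46, HS2 differed by only −0.35 with an interval from −0.74 to 0.04 that included 0, and 1 flanking region, chr11:9527987-9528835, lay below HS2. For dCas9-KRAB against dCas9 with Cr10 they ran from −0.34 to 0.50, beside −0.86 at HS2. Of the 18 regions of the olfactory receptor stretch, 3 had intervals wholly above that of HS2 for Cr4 against no gRNA. For Cr10 against no gRNA 16 of the 18 did. Against dCas9, 0 of the 18 did for Cr4 and 10 for Cr10.

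Regions whose 3 libraries lay wholly apart from the 3 of the other group were counted. With dCas9-KRAB and Cr4 against no gRNA, 3 of 270 lay lower (1.11%, beside 2.38% of all regions) and 12 higher (4.44%, beside 2.4%). With Cr10 against no gRNA, 4 lay lower (1.48%, beside 2.01%) and 8 higher (2.96%, beside 2.22%). For dCas9-KRAB against dCas9, Cr4 gave 4 lower (1.48%, beside 1.76%) and 6 higher (2.22%, beside 1.51%), and Cr10 gave 8 lower (2.96%, beside 2.13%) and 10 higher (3.70%, beside 2.42%). Of these, the olfactory receptor stretch held 3 lower, all with Cr4 against dCas9. These were 3 of its 18 regions (16.7%), beside 1.76% of all regions, and lay 887 kb (the TRIM21 peak), 654 kb (chr11:4647440-4647784) and 989 kb (chr11:6291108-6291656) from HS2. At TRIM21 the pileup was 1.15 to 1.42 times the library median in dCas9-KRAB with Cr4, against 1.44 to 1.78 times in dCas9 with Cr4. The stretch had 0 of 18 lower with Cr4 against no gRNA and in both Cr10 comparisons. It held 1 higher (5.56% of the 18), the region at 196 kb with Cr4 against no gRNA.

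The control groups were also compared with each other. For dCas9 against dCas9-KRAB without a gRNA, 0 regions were called with Cr4 (0%) and 0 with Cr10 (0%). The differences of single regions ran from −0.39 to 0.42 with Cr4 and from −0.37 to 0.41 with Cr10, beside −0.35 to 0.47 for dCas9-KRAB with Cr4 and −0.39 to 0.43 for dCas9-KRAB with Cr10. These comparisons share the libraries without a gRNA with those above.

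Part of the regions absent from some lists were covered by the rank of the peak's fold within lists of equal length. The rank was a percentile with 0 for no peak. Regions needed a peak in at least 3 of these lists, which 399 of the 744 flanking regions had. Up to 100 kb from HS2, 3 of 5 regions were tested, and those at 23.03 and 83.2 kb were not. Of 399 flanking regions tested, 0 were called in the pooled comparison (0% of 62828 regions), 6 were lower at an unadjusted p of 0.05 (1.5%, beside 0.922%) and 1 higher (0.251%, beside 0.796%). None of the 6 lay in the olfactory receptor stretch, 2 lay on the telomeric side and 4 on the centromeric side, of which 3 lay 3 to 4 Mb from HS2. Leaving out replicate 3 of dCas9-KRAB with Cr4 or replicate 3 of dCas9 with Cr10 gave 13 under that p in place of 7. These were 3.26% of the 399 each time, beside 3.29% and 2.225% of all regions in the same order. The median difference was 0.430 percentile points over the 399, 0.322 over the 41 in the stretch, and 0.113 over all regions. By distance within the stretch it was −3.57 up to 100 kb from HS2 (3 regions, 2 below 0), −0.453 from 100 to 250 kb (8 regions, 4 below 0), 0.424 from 250 to 500 kb (14 regions) and 0.311 beyond (16 regions). With single libraries left out, the class up to 100 kb ran from −6.73 (without replicate 2 of dCas9 with Cr10) to 0.02 (without replicate 3 of dCas9 with Cr10), and its SD between replicate libraries was 13.2 points. The 16 flanking regions with a peak in 12 or more deposited lists that were left out here had too low a fold to stay in 3 of the shortened lists.

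The separate comparisons by rank also called 0 flanking regions each (0% of all regions each). At an unadjusted p of 0.05, dCas9-KRAB with Cr4 against no gRNA gave 5 lower (1.25% of the 399, beside 1.17% of all regions) and 6 higher (1.5%, beside 1.25%). Cr10 against no gRNA gave 6 lower (1.5%, beside 1.5%) and 2 higher (0.501%, beside 1.3%). Against dCas9, Cr4 gave 3 lower (0.752%, beside 0.707%) and 1 higher (0.251%, beside 0.541%), and Cr10 gave 3 lower (0.752%, beside 1.39%) and 3 higher (0.752%, beside 1.1%). The highest count with a library left out was 18 for Cr4 against no gRNA (4.51%, beside 3.73% of all regions), without replicate 2 of no gRNA. For Cr10 against no gRNA it was 16 (4.01%, beside 3.23%), without replicate 3 of dCas9-KRAB with Cr10. Against dCas9 it was 11 for Cr4 (2.76%, beside 2.46%), without replicate 3 of dCas9 with Cr4. For Cr10 against dCas9 it was 17, without replicate 3 of dCas9 with Cr10.

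Presence was compared by Fisher's exact test over the 39037 regions with a peak in 3 to 12 lists. In the pooled comparison 0 were called (0%), and no region of any kind was listed in all 6 and none of the 9 or the reverse (0%). With 6 against 9 libraries, the lowest p that Fisher's exact test can give is 0.0001998. A single region at that p would not pass the adjustment over 39037 regions, so the 0 calls say little about gained or lost peaks. Of 241 flanking regions, 2 were under an unadjusted p of 0.05 (0.830%, beside 1.2% of all). Both were found less often under guided dCas9-KRAB. At chr11:2288623-2288935 a peak was listed in 1 of 6 guided dCas9-KRAB libraries against 7 of 9 others (Fisher's exact p = 0.0406), and at chr11:8040458-8040928 in 0 of 6 guided dCas9-KRAB libraries against 5 of 9 others (p = 0.0440). Both lie beyond 2 Mb from HS2, and were chosen by this p.

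Peaks that were complete in the 3 libraries of one group and missing from the 3 of the other were counted as gained or lost. With dCas9-KRAB and Cr4 against no gRNA 0 flanking regions were gained (0.0917% of all regions) and 0 lost (0.0628%). With Cr10 against no gRNA 0 were gained (0.0587%) and 0 lost (0.217%). Against dCas9, Cr4 gave 0 gained (0.00909%) and 0 lost (0.15%), and Cr10 gave 0 gained (0.00579%) and 1 lost (0.153%), the region at chr11:2288623-2288935.

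The flanking regions with the lowest p in the pooled comparison also lay far from HS2. At chr11:6552522-6553007, 1251 kb from HS2, the pileup was 0.474 to 0.625 times the library median, with a median of 0.532, under guided dCas9-KRAB, against 0.584 to 0.815 times, with a median of 0.638, in the other 9. The ranges overlapped at their ends. The log2 difference was −0.26 (SE 0.12, limma unadjusted p = 0.0368, adjusted p = 1.00). At chr11:9769889-9770406 the pileup was 0.754 to 1.21 times, with a median of 0.914, under guided dCas9-KRAB, against 0.578 to 0.958 times, with a median of 0.769, in the others, a log2 difference of 0.24 (unadjusted p = 0.0466, adjusted p = 1.00).

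Of the regions with the lowest p in the comparisons with no gRNA, chr11:6552522-6553007 was among the 3 lowest in both, with a log2 difference of −0.35 (interval −0.72 to 0.02) for Cr4 and −0.31 (interval −0.69 to 0.06) for Cr10. All comparisons with no gRNA share those 3 libraries, of which replicate 1 was the highest of the 15 at this site. The region at chr11:2009806-2010263 was also in both, with −0.29 for Cr4 and −0.30 for Cr10. The lowest p of each gRNA were at chr11:1974767-1975096, with a log2 difference of 0.43 for Cr4 (limma, unadjusted p = 0.0112, adjusted p = 1.00), and at chr11:3361205-3361627, −0.39 for Cr10 (limma, unadjusted p = 0.0468, adjusted p = 1.00). All lie more than 1 Mb from HS2.

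The classes also differed in level, in every group. The median pileup of the 18 regions of the stretch, as log2 relative to the library median, was −0.43 ± 0.13 (SD, n = 6) under guided dCas9-KRAB and −0.39 ± 0.18 (n = 9) in the others. On the telomeric side it was 0.26 ± 0.03 under guided dCas9-KRAB and 0.24 ± 0.10 in the others. On the centromeric side it was −0.02 ± 0.06 under guided dCas9-KRAB and −0.08 ± 0.06 in the others. The difference between these 2 sets of libraries was smaller than the SD in each class. On the centromeric side the 3 libraries of dCas9-KRAB with Cr4, at 0.00 to 0.04, lay wholly above the 3 of dCas9 with Cr4, at −0.12 to −0.04, and the 3 without a gRNA, at −0.17 to −0.02. The telomeric side stood above the stretch in all 15 libraries, by 0.50 to 0.91 under guided dCas9-KRAB and by 0.19 to 1.01 in the others. The lowest and the highest of these gaps were replicates 1 and 2 of dCas9 with Cr10. Across the 15 libraries this gap had a Pearson r of 0.938 with the same gap in local background and of −0.04 with list length. Both are descriptions. The background was derived from the same summit pileup and the deposited fold, so the 2 gaps are not separate measurements. What sets the gap was not tested.

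**Figure D5:**
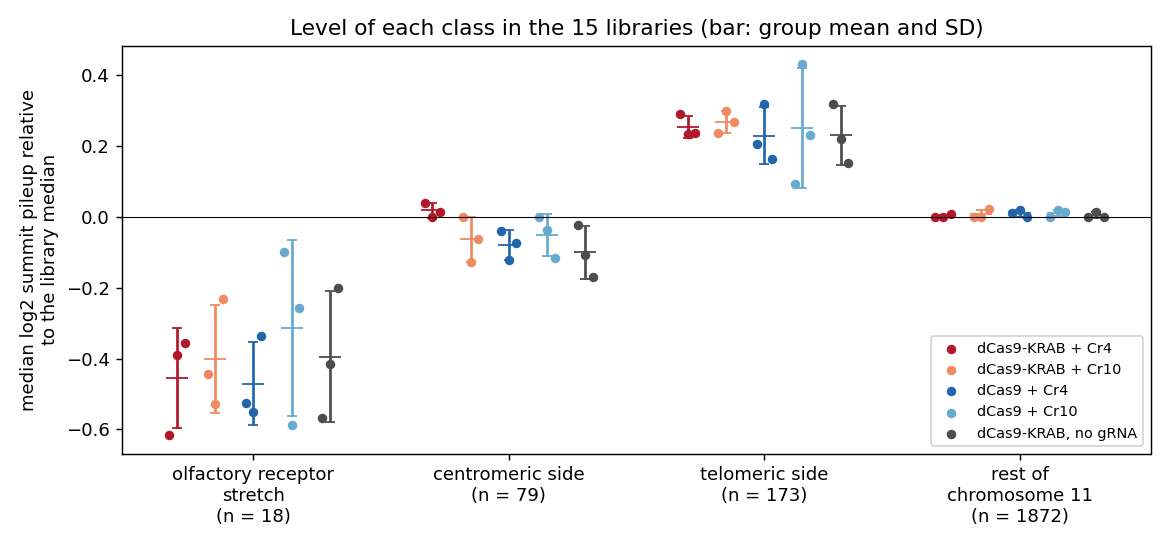
Median summit pileup of each class of regions, as log2 relative to the library median, one point per library, with the mean and SD of the 3 libraries of each group. The stretch is lowest and the telomeric side highest in all 5 groups, and the 6 libraries of guided dCas9-KRAB overlap the other 9 within each class.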

How the data were processed

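Open chromatin of K562 cells was measured in 15 libraries, one peak list each. The submitters' processing notes name CASAVA 1.3, BWA, bedtools and the build hg19. The peak caller is not given in the sources used here. The deposited fold column is a ratio to local background. Per-peak p-values and q-values come as −log10, as deposited by the authors. The deposited score is an integer and was not used.

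The members and lists were chosen with earlier results of these data known. With fold = (k + 1)/(background + 1) and a Poisson p-value, a whole-number summit pileup k could be found, to 0.01 in −log10 p, for 100% of peaks, against 2.52% to 4.22% with p-values moved at random. Log2(k + 1) less the library median was tested by limma 3.58.1 (trend, 15 libraries, 5 groups, two-sided, Benjamini-Hochberg over all regions, R 4.3.3). Rank percentiles used lists of 53098 peaks and regions in at least 3 of them. Scripts were tested on simulated data and ran under Python 3.11.15. Named regions are the 5 nearest on each side, those of the stretch in all lists, the 3 lowest p in each direction in 3 comparisons (some given as values), and 42 listed gene starts, 41 of them inside the interval, of which one is not reported here by name. Regions named for Fisher's exact test, and the one below HS2 with Cr4 against dCas9, were chosen after their values were seen. No depth is given, so precision is limited by the pileup and by 3 libraries a group.

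Replicate numbers paired the samples, by correlations over 0.1 in all 3 pairs, in 3 of 6 comparisons: Cr10 under dCas9-KRAB against no gRNA (0.393, 0.121 and 0.460), dCas9-KRAB against dCas9 with Cr4 (0.576, 0.127 and 0.142) and dCas9 with Cr4 against no gRNA (0.535, 0.309 and 0.409). They did not for dCas9-KRAB against dCas9 with Cr10 (−0.067, 0.009 and 0.160) or over all groups (−0.283, 0.135 and 0.653). Alternatives covered the replicate block, each library left out, scaling, limma settings, filters, peak thresholds, overlaps and class limits.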

Additional observations from a re-analysis of the deposited data

Results flagged for a closer look

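Among 124 groups of values examined for a library far from the rest, 5 held one, where chance alone gives about 1 in 20. Replicate 3 of dCas9-KRAB with Cr4, the longest list of its 6 libraries, had a peak in 563 flanking regions, and the next of the 6 had 443. At chr11:4658110-4658703 replicate 2 of dCas9 with Cr10 stood at −0.826 in log2 pileup relative to the library median, below the other 8 libraries outside dCas9-KRAB with a gRNA. At chr11:6272374-6272685 replicate 1 of dCas9-KRAB with Cr10 stood at −0.1993, above the other 5 under guided dCas9-KRAB. Replicate 1 without a gRNA stood apart at chr11:6552522-6553007, at −0.2944, and at chr11:9159263-9159651, at −0.737. None of the 62 items examined, the named regions and 5 summaries over classes, moved one way in all libraries of one gRNA and the opposite way in all of the other.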

How the results depend on the processing

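No flanking region was called in any of 322 fits over comparisons, measures and settings, and the lowest adjusted p of one was 0.580 (limma). Counts of flanking regions under an unadjusted p of 0.05 did move: over the settings that leave out a library they ran from 0 to 9 on the pileup (2 with all libraries) and from 5 to 13 by rank (7 with all libraries) in the pooled comparison. Counts of calls over all regions moved as well. With the replicate number as a block, which treats same-numbered libraries as paired, limma on the pileup called 1 region in the pooled comparison, 1 for Cr10 under dCas9-KRAB against no gRNA, and 1 where dCas9-KRAB was set against dCas9 under Cr10, each time HS2, which is not a flanking region. Of these comparisons, only Cr10 under dCas9-KRAB against no gRNA had correlations over 0.1 in all 3 pairs. Leaving out one library gave 0 to 1 calls in the pooled comparison and 0 to 1 for Cr10 against no gRNA on the pileup, again HS2 (without replicate 2 of no gRNA, replicate 1 of dCas9-KRAB with Cr10 or, for the second, replicate 1 of dCas9 with Cr4). By rank it gave 0 to 1 for Cr10 under dCas9-KRAB against no gRNA, 0 to 2 where dCas9-KRAB was set against dCas9 under Cr10 and 0 to 1 for dCas9 with Cr10 against no gRNA, without replicate 3 of dCas9-KRAB or of dCas9 with Cr10, all on other chromosomes. The cause was not tested. The block changed no call of a flanking region. The pooled median of the olfactory receptor stretch ran from −0.06 to 0.02 over the settings, that of its single region up to 100 kb from HS2 from −0.21 to 0.02, and that of the telomeric side from 0.01 to 0.06. Weak peaks limit what can be seen within 100 kb on the centromeric side, where no region had a peak in all lists.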
